A study of Homo sapiens with 18 samples.

Results

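The genes described here are 7 genes of glucuronidation and of the route that makes its sugar donor: HK1, PGM1, UGP2, UGDH, UGT2B7, UGT2B4 and UGT2B17. They were taken by gene symbol, in all 18 arrays, out of 17687 genes with a probe set of a single symbol, and each of the 7 has 1 such probe set. The study chose the glucuronidation pathway on these same samples, so the behaviour of its genes here is not independent evidence. Clariom S arrays read the RNA of SKOV-3, a cell line from a human ovarian carcinoma, 24 h into treatment with 15 µM cisplatin, a platinum drug that crosslinks DNA. Cells carried 1 of 3 plasmids, introduced by transient liposomal transfection: PEA-15AA, a form of the ERK-binding protein PEA-15 that cannot be phosphorylated at its regulatory serines (SKOV-3-AA), PEA-15DD, a phosphomimetic form (SKOV-3-DD), or the empty vector (SKOV-3-EV). Each transfection was either given cisplatin or left untreated in medium, which makes 6 groups of 3 arrays. All groups share the cell line, the transfection procedure and their own PEA15 gene, and the untreated cells were transfected too. The share of cells that took up a plasmid was not analysed here. The labels number 3 replicates in each group and do not say whether they came from separate cultures, so p-values measure only the spread between these arrays, which may be technical.

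Glucuronidation attaches glucuronic acid to drugs, steroids, bile acids and bilirubin, which makes them soluble enough to be excreted. The UDP-glucuronosyltransferases (UGT) of the endoplasmic reticulum carry out the transfer and take the sugar from UDP-glucuronate. That donor is made in the cytosol: hexokinase phosphorylates glucose, phosphoglucomutase moves the phosphate, UGP2 joins the sugar to UTP as UDP-glucose and UGDH oxidises UDP-glucose to UDP-glucuronate. UGT2B enzymes are best known from liver, intestine, kidney and steroid target tissues, whereas the enzymes of donor supply serve nearly all cells, since UDP-glucose and UDP-glucuronate also feed glycogen and proteoglycan synthesis.

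Promoter sequence is shown for genes on either side of the cisplatin response and for UGP2, which was not called. RefSeq promoter windows of GRCh38.p14, from 250 bases before to 50 after an annotated start, were available for 5 of the 7 genes. UGDH and UGT2B7 have 1 window each, UGP2 has 2, PGM1 has 3 and HK1 has 7. The 250 bases before the start are printed 5′ to 3′ on the strand of the gene, for PGM1 and UGP2 at the outermost start, and for HK1 none is shown because the array does not tell its starts apart. Capitals mark matches on either strand to the xenobiotic response element core GCGTG or the GC box GGGCGG. The stretches are chr4:39527440-39527689 (minus strand) for UGDH, chr1:63593161-63593410 (plus strand) for PGM1, chr2:63840719-63840968 (plus strand) for UGP2 and chr4:69096224-69096473 (plus strand) for UGT2B7. The start used for UGT2B7 lies inside the annotated gene, which begins at chr4:69051375.
UGDH: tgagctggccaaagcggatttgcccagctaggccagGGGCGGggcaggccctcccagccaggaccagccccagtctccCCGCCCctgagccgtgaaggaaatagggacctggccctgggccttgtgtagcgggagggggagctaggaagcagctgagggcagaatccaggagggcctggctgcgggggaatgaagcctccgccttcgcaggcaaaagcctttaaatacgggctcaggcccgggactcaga
PGM1: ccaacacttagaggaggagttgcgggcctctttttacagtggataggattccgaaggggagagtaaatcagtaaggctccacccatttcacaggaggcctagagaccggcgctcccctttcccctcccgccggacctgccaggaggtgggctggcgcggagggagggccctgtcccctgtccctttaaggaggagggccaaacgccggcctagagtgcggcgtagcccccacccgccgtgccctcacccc
UGP2: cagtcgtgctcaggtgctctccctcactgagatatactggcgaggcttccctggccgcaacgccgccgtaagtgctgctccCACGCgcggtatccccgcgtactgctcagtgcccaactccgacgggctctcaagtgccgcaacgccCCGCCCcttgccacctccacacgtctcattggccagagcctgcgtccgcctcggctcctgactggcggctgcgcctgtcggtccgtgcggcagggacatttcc
UGT2B7: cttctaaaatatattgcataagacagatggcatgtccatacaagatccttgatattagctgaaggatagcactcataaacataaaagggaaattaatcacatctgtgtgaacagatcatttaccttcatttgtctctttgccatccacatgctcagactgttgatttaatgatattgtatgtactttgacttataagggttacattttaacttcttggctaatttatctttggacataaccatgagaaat

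The printed UGDH stretch held 2 GC boxes, and 2 GCGTG cores lay in the 50 bases after its start. The printed UGP2 stretch held 1 match to each motif. The PGM1 stretch held neither, with 1 GC box just after the start. In the whole UGT2B7 window, of which 35% was G or C, none of the motifs searched was found, whereas 66.7% of the UGDH window was G or C. The other motifs searched on both strands were the antioxidant response element core TGACNNNGC, the E-box CACGTG, the cAMP response element half-site TGACG and the TATA box TATAAA, and no match to these lay in the 4 windows shown. Among the windows of HK1, 1 held the antioxidant response element core. Of all 35114 windows, 45% held a GC box, 36.5% GCGTG, 24.6% TGACG, 13.3% TGACNNNGC, 11.5% TATAAA and 7.26% CACGTG, so the matches are common ones and are given as a description of the letters only.

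The values are log2 signals after SST-RMA, as deposited. Negative control features on each array give the level of unspecific signal: their 95th percentile lay between 6.80 and 7.62 in cisplatin-treated arrays and between 6.30 and 6.95 in untreated arrays, and their median lay between 3.70 and 3.92 under cisplatin and between 3.57 and 3.69 in untreated arrays. A probe set under the 95th percentile is described as within the range of the negative controls. HK1, PGM1, UGP2 and UGDH lay above that range on 18 of 18 arrays, UGT2B7 on 11 and UGT2B4 and UGT2B17 on 0. Comparisons used limma over all 18 arrays, with p-values adjusted by Benjamini and Hochberg over 21448 probe sets, and a change was called at an adjusted p under 0.05. Genes past the study's own limits (a 2-fold change or more, with p under 0.05 before adjustment) are counted beside it. Array medians lay between 6.33 and 6.44 under cisplatin and between 6.53 and 6.61 in untreated cells. Cells are measured in bulk and arrays are adjusted to each other, so signals show neither the number of cells nor the total RNA per cell.

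In SKOV-3-AA cells 3 of the 7 genes fell after cisplatin (HK1, UGT2B7 and PGM1) and 2 rose (UGDH, and UGT2B17 at signals within the negative controls), while 23% of all probe sets were called lower and 22.3% higher. In SKOV-3-DD cells the same 3 genes fell and UGDH rose, against 22.7% of probe sets called lower and 20.1% higher. In SKOV-3-EV cells HK1, UGT2B7 and PGM1 fell and UGDH rose, against 24.3% called lower and 26.2% higher. The study's thresholds were passed by 3 genes in SKOV-3-AA, 3 in SKOV-3-DD and 2 in SKOV-3-EV cells, all lower, where 12.3%, 11.7% and 13.1% of probe sets passed them in that direction. Over the mean of the 3 transfections 3 fell and 1 rose, with 28.7% of probe sets called lower and 36.5% higher. The median log2 fold change of the 7 genes in SKOV-3-AA cells was -0.28, against 0.09 over all probe sets. With so many probe sets called, a share of 3 in 7 is described and not tested.

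**Figure D1:**
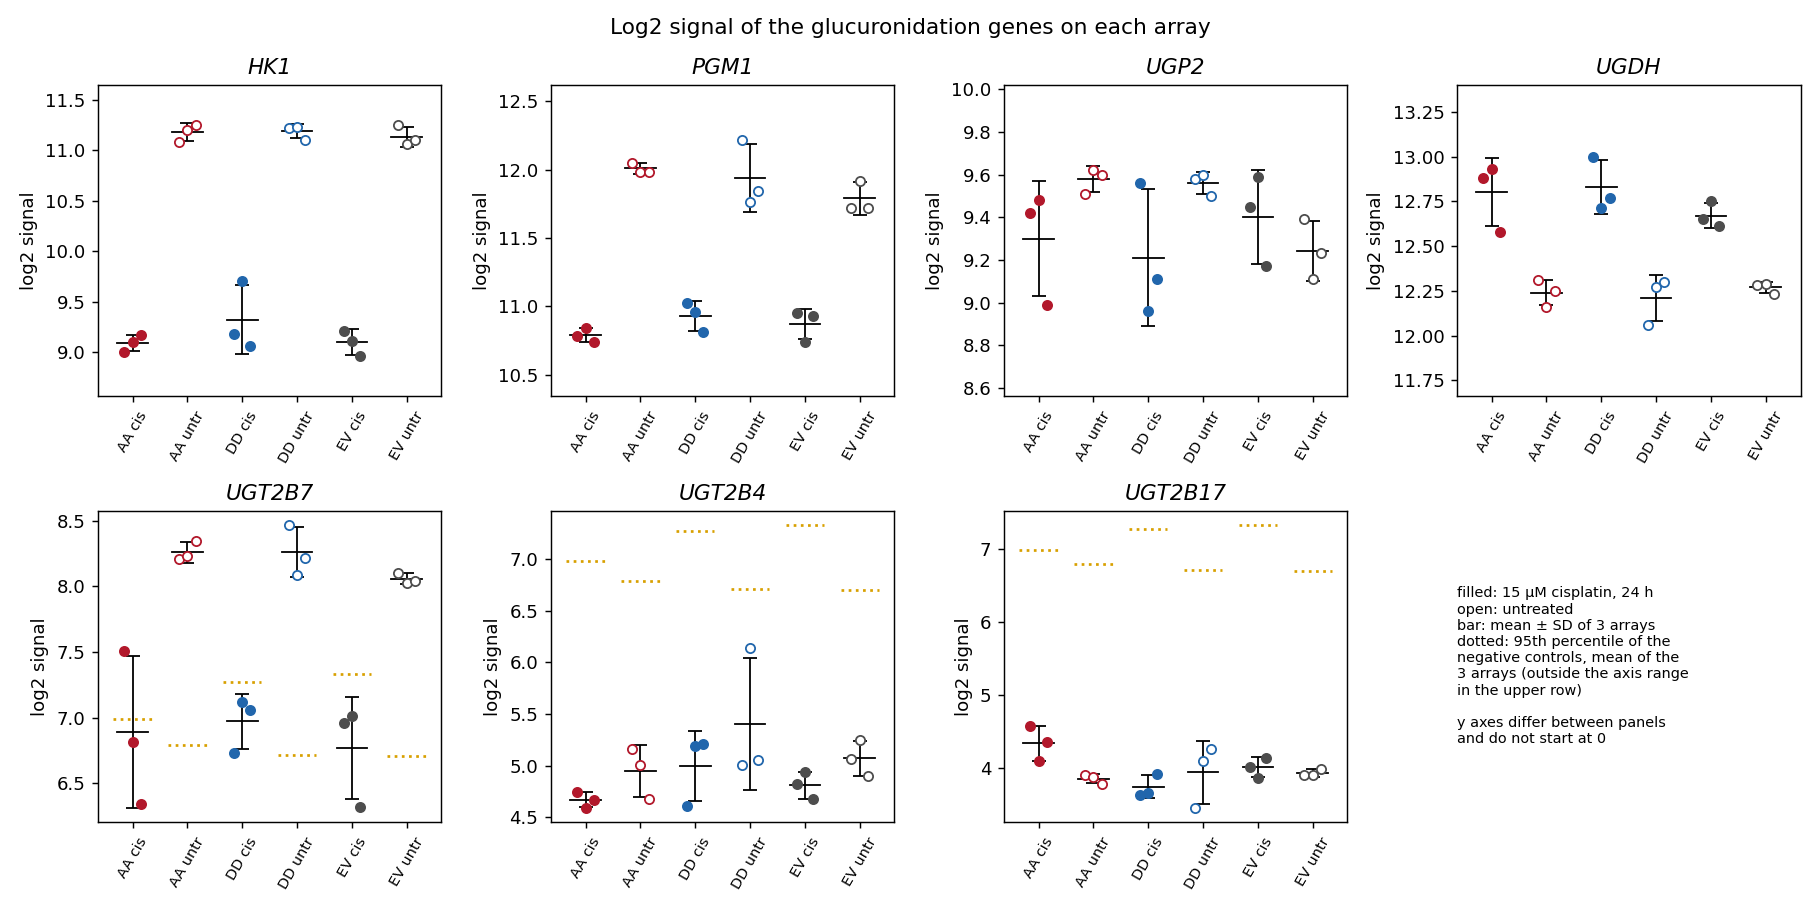
Log2 signal (y axis, with a range of its own in each panel) of the 7 genes on each of the 18 arrays, by transfection and treatment (x axis), with the mean and SD of 3 arrays and, dotted, the 95th percentile of the negative controls. HK1 and PGM1 arrays under cisplatin all lie below the untreated ones and UGDH arrays all lie above them, while UGT2B4 and UGT2B17 lie under the dotted lines throughout. How many of all probe sets lie apart in this way was not counted.

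HK1, the hexokinase of most tissues and the entry of glucose into the route, had the largest change of the 7 genes. Its signal was 9.00, 9.10 and 9.17 in cisplatin-treated SKOV-3-AA cells, against 11.08, 11.20 and 11.25 in untreated ones. It was 9.18, 9.70 and 9.06 in treated SKOV-3-DD cells, against 11.22, 11.23 and 11.10 in untreated ones, and 9.21, 9.11 and 8.96 in treated SKOV-3-EV cells, against 11.25, 11.06 and 11.10 in untreated ones. All 9 treated arrays thus lay below all 9 untreated arrays, and replicate 2 of treated SKOV-3-DD cells was the highest of the treated arrays. The fall was 4.24-fold in SKOV-3-AA cells (log2 fold change -2.09, SE 0.15, adjusted p = 2.2e-09, limma), 3.65-fold in SKOV-3-DD cells (-1.87, SE 0.15) and 4.11-fold in SKOV-3-EV cells (-2.04, SE 0.15). Of all probe sets, 2.96% fell further than HK1 over the mean of the transfections. Over that mean 28.7% were called lower and 36.5% higher. The number of probe sets with all treated arrays apart from all untreated ones, as in HK1, PGM1, UGDH and UGT2B7, was not counted.

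PGM1, which interconverts glucose 6-phosphate and glucose 1-phosphate, fell by about the threshold of 2-fold in each transfection. Its signal was 10.78, 10.84 and 10.74 in treated SKOV-3-AA cells, against 12.05, 11.98 and 11.98 in untreated ones. In SKOV-3-DD cells it was 11.02, 10.96 and 10.81 under cisplatin, against 12.22, 11.76 and 11.84 in untreated cells, and in SKOV-3-EV cells 10.95, 10.74 and 10.93 under cisplatin, against 11.72, 11.92 and 11.72 in untreated cells. No treated array reached any untreated one. The decrease was 2.33-fold in SKOV-3-AA (SE 0.13 on the log2 scale, adjusted p = 3.8e-07, limma), 2.02-fold in SKOV-3-DD (adjusted p = 3.7e-06) and 1.88-fold in SKOV-3-EV cells (adjusted p = 1.2e-05), so PGM1 missed the study's 2-fold limit in SKOV-3-EV cells and passed it in the other transfections. The difference between the responses of SKOV-3-AA and SKOV-3-EV cells was -0.31 on the log2 scale (95% confidence interval -0.69 to 0.08, adjusted p = 0.77, limma) and was not called. In SKOV-3-DD cells 2 genes passed the study's thresholds once arrays were centred on their medians, against 3 as deposited.

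UGP2, the pyrophosphorylase that makes UDP-glucose, was not called in any transfection. Its signal was 9.42, 9.48 and 8.99 in treated SKOV-3-AA cells, against 9.51, 9.62 and 9.60 in untreated ones. It was 9.56, 8.96 and 9.11 in treated SKOV-3-DD cells, against 9.58, 9.60 and 9.50 in untreated ones, and 9.45, 9.59 and 9.17 in treated SKOV-3-EV cells, against 9.39, 9.11 and 9.23 in untreated ones. The treated arrays spread more widely than the untreated ones in each transfection, and treated and untreated arrays overlapped in all transfections but SKOV-3-AA. The log2 fold change was -0.28 in SKOV-3-AA (95% confidence interval -0.63 to 0.07), -0.35 in SKOV-3-DD (-0.70 to 0.00) and 0.16 in SKOV-3-EV cells (-0.19 to 0.51). Averaged over the transfections it was -0.16 as deposited, 0.04 with centred arrays and 0.08 after quantile normalisation, so that its sign depended on the scaling.

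UGDH, the dehydrogenase whose product is the sugar donor of glucuronidation, was the gene of donor supply that rose. Its signal was 12.88, 12.93 and 12.58 in treated SKOV-3-AA cells, against 12.31, 12.16 and 12.25 in untreated ones. In SKOV-3-DD cells it was 13.00, 12.71 and 12.77 under cisplatin, against 12.06, 12.27 and 12.30 in untreated cells, and in SKOV-3-EV cells 12.65, 12.75 and 12.61 under cisplatin, against 12.28, 12.29 and 12.23 in untreated cells. The lowest treated array of all, at 12.58, stood above the highest untreated array, at 12.31. The increase was 1.47-fold in SKOV-3-AA (log2 fold change 0.56, SE 0.13, adjusted p = 0.0013, limma), 1.54-fold in SKOV-3-DD (0.62, adjusted p = 0.00051) and 1.32-fold in SKOV-3-EV cells (0.40, adjusted p = 0.013), below the study's 2-fold limit in each. UGDH responded above 82.5% of all probe sets over the mean of the transfections.

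UGT2B7, which glucuronidates morphine, bile acids, fatty acids and steroids, was the only 1 of the 3 UGT2B genes with signal above the negative controls. Its signal was 7.51, 6.81 and 6.34 in treated SKOV-3-AA cells, against 8.21, 8.23 and 8.35 in untreated ones. It was 6.73, 7.12 and 7.06 in treated SKOV-3-DD cells, against 8.47, 8.09 and 8.22 in untreated ones, and 6.96, 7.01 and 6.32 in treated SKOV-3-EV cells, against 8.10, 8.03 and 8.04 in untreated ones. Every treated array lay below every untreated one. In each transfection 3 of 3 untreated arrays were above the range of the negative controls. Of the treated arrays, 2 of 3 of SKOV-3-AA, 0 of 3 of SKOV-3-DD and 0 of 3 of SKOV-3-EV cells were. The treated means were 6.89, 6.97 and 6.77, and 1 SKOV-3-AA array passed at 6.81 against 6.80. The 95th percentile of the controls was 6.80 to 7.19 in treated SKOV-3-AA, 7.09 to 7.62 in SKOV-3-DD and 7.19 to 7.56 in SKOV-3-EV arrays. The measured fall was -1.38 on the log2 scale in SKOV-3-AA (SE 0.23, adjusted p = 7.4e-05, limma), -1.29 in SKOV-3-DD (adjusted p = 0.00015) and -1.29 in SKOV-3-EV cells (adjusted p = 0.00014). Where all treated arrays lie within the range of the negative controls the fall has only a lower bound, which, with the 95th percentile of each array as the floor, was at least 1.99-fold in SKOV-3-DD and at least 1.65-fold in SKOV-3-EV cells. UGT2B genes lie in a cluster on chromosome 4 and resemble each other closely, and signal from a near-identical relative cannot be told apart from that of UGT2B7 here.

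UGT2B4, a bile acid conjugating enzyme of liver, ranged from 4.59 to 5.21 in the 9 treated arrays, with a median of 4.74, and from 4.68 to 6.14 in the 9 untreated arrays, with a median of 5.05. Treated and untreated arrays overlapped in each transfection, no array was above the negative controls, and the differences of -0.28, -0.40 and -0.26 in SKOV-3-AA, SKOV-3-DD and SKOV-3-EV cells were not called (adjusted p from 0.21 to 0.39, limma). The differences of a gene within the range of the negative controls are given as signals and not as folds.

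UGT2B17, which conjugates androgens, ranged from 3.63 to 4.58 in treated and from 3.45 to 4.26 in untreated arrays, within the range of the negative controls. In SKOV-3-AA cells it was 4.58, 4.09 and 4.36 under cisplatin, against 3.90, 3.87 and 3.78 in untreated cells, and this difference of 0.49 (SE 0.18, adjusted p = 0.029, limma) was called. The median of the negative controls in SKOV-3-AA arrays was 3.70 to 3.88 under cisplatin, against 3.59 to 3.65 in untreated cells. The call was lost after quantile normalisation (0.33) and when any of 5 of the 6 SKOV-3-AA arrays was left out, namely replicate 1 (0.38) or 3 (0.49) of the treated or replicate 1 (0.52), 2 (0.50) or 3 (0.46) of the untreated arrays. In SKOV-3-DD cells the difference was -0.20 and in SKOV-3-EV cells 0.08, and neither was called. In SKOV-3-DD cells, leaving out untreated replicate 1 gave -0.44 and a call. The level of UGT2B17 RNA was thus not detectable above the negative controls in any group.

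**Figure D2:**
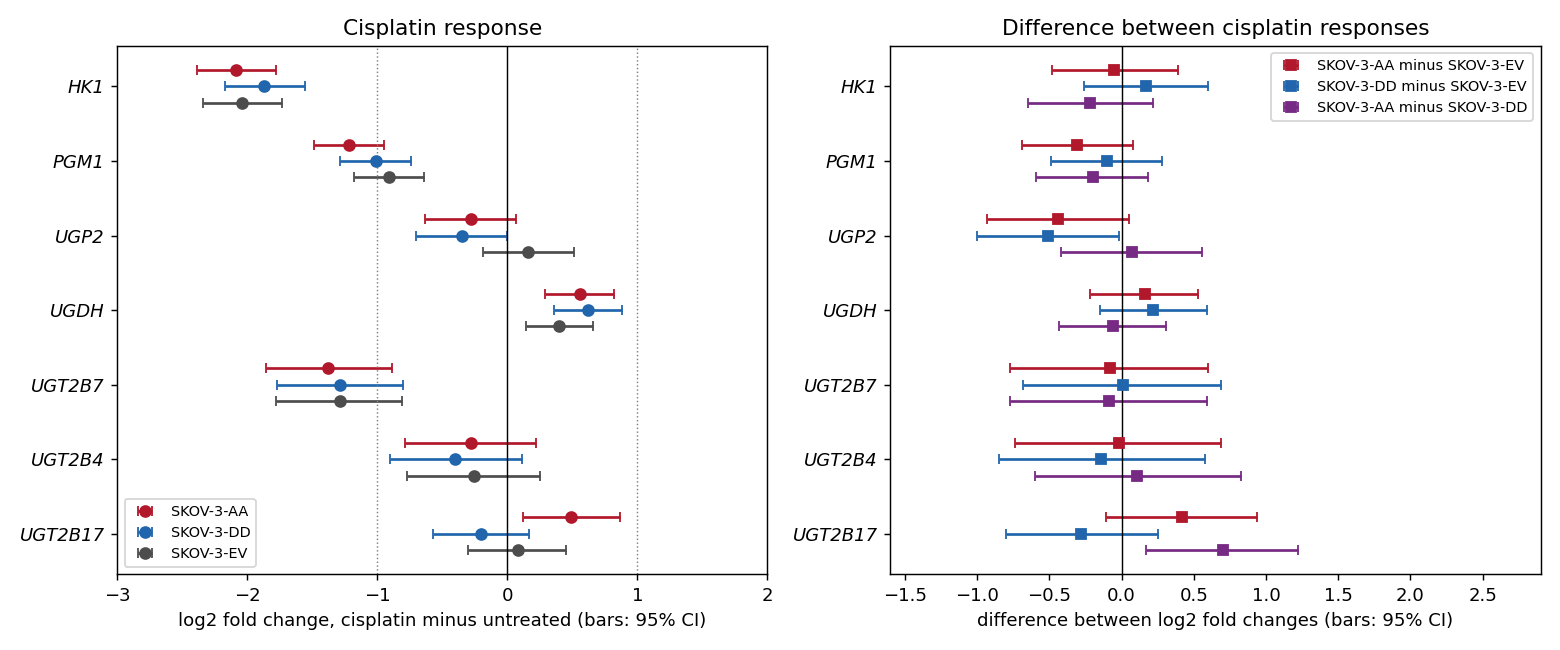
Log2 fold change of each gene after cisplatin (left; cisplatin minus untreated) and difference between these responses (right), with 95% confidence intervals from limma over 18 arrays. HK1, PGM1 and UGT2B7 lie left of 0 and UGDH right of 0 in all 3 transfections, and the intervals of the differences span 0 except for UGP2 in SKOV-3-DD minus SKOV-3-EV and UGT2B17 in SKOV-3-AA minus SKOV-3-DD cells, which were not called after adjustment.

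Whether the form of PEA-15 altered these genes was addressed by comparing transfections within a treatment and by the difference between cisplatin responses. None of the 7 genes was called in any of these 9 comparisons, in which limma called 0% of probe sets, with between 662 and 2671 of the 21448 probe sets at an unadjusted p under 0.05. With limma's trend and robust options at most 3 probe sets were called in a comparison, none of them among the 7 genes. For HK1 the responses of SKOV-3-AA and SKOV-3-EV cells differed by -0.05 (95% confidence interval -0.48 to 0.39), and those of SKOV-3-DD and SKOV-3-EV cells by 0.17 (-0.26 to 0.60). For UGT2B7 these differences were -0.08 (-0.77 to 0.60) and 0.01 (-0.68 to 0.69), and for UGDH 0.16 (-0.22 to 0.53) and 0.22 (-0.15 to 0.59). A comparison that misses the threshold does not show equal responses. For HK1 and UGDH the widths of these intervals bound what was measurable with 3 arrays a group. For UGT2B7 they do not bound the difference, since 0 of 3 treated arrays of SKOV-3-DD and of SKOV-3-EV cells were above the negative controls.

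An unadjusted p under 0.05 was reached between transfections by UGP2 and UGT2B17 alone among the 7 genes. In untreated cells UGP2 was 9.51 to 9.62 in SKOV-3-AA and 9.50 to 9.60 in SKOV-3-DD cells, against 9.11 to 9.39 in SKOV-3-EV cells, so both groups lay apart from the vector arrays. In untreated SKOV-3-AA cells PGM1 (11.98 to 12.05, against 11.72 to 11.92) and UGT2B7 (8.21 to 8.35, against 8.03 to 8.10) also lay apart from them. Of all probe sets, 13.6% did not overlap between untreated SKOV-3-AA and SKOV-3-EV arrays and 12.5% between untreated SKOV-3-DD and SKOV-3-EV arrays, and 0% were called in either comparison. The UGP2 difference was 0.33 (SE 0.17, unadjusted p = 0.061) for SKOV-3-AA and 0.32 (unadjusted p = 0.073) for SKOV-3-DD cells by limma. The UGP2 response of SKOV-3-DD minus that of SKOV-3-EV cells was -0.51 (95% confidence interval -1.00 to -0.02, unadjusted p = 0.044, adjusted p = 0.65, limma), and that of SKOV-3-AA minus SKOV-3-EV cells was -0.44 (-0.93 to 0.05). These comparisons share the vector arrays. UGT2B17 was 0.61 higher in treated SKOV-3-AA than in treated SKOV-3-DD cells (SE 0.18, unadjusted p = 0.0031, adjusted p = 0.55, limma), within the range of the negative controls, and its response in SKOV-3-AA minus that in SKOV-3-DD cells was 0.70 (95% confidence interval 0.17 to 1.22, adjusted p = 0.99, limma).

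PEA15 itself was read as the check of the plasmids. Its signal was 9.96, 9.80 and 10.01 in untreated arrays labelled SKOV-3-AA and 9.59, 10.48 and 12.21 in those labelled SKOV-3-DD, against 10.31, 10.06 and 10.39 in those labelled SKOV-3-EV. Under cisplatin it was 9.99, 10.22 and 10.42 in SKOV-3-AA and 10.53, 10.73 and 11.63 in SKOV-3-DD arrays, against 10.95, 11.07 and 11.51 in SKOV-3-EV arrays. PEA15 was thus not higher in arrays labelled SKOV-3-AA than in vector arrays, with a difference of -0.33 in untreated cells and -0.97 under cisplatin (adjusted p = 0.37, limma), and 1 untreated array labelled SKOV-3-DD stood far above the other 2. The sources used here do not state whether the PEA15 probes read the plasmid's transcript, and in these arrays each direction between transfections rests on the labels. The study followed the tagged protein by Western blot, which was not analysed here.

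Beyond UGT2B7, the UGT genes measured here gave little signal on these arrays. Of 22 family members listed, 10 had a probe set with that symbol alone. Those of the UGT1A and UGT2A groups were not analysed here, so nothing is said of their level. For 8 of the 10, no array was above the negative controls, with signals between 2.86 and 6.29. UGT8, which makes the galactosylceramide of myelin and uses UDP-galactose, was the other member with signal: it ranged from 5.71 to 6.90 in treated arrays, against 7.34 to 7.88 in untreated ones, and was above the negative controls on 0 of 9 treated and 9 of 9 untreated arrays. Its measured difference was -1.41 in SKOV-3-AA, -1.45 in SKOV-3-DD and -1.08 in SKOV-3-EV cells (called in each), and the bound against the negative controls was at least 1.58-fold, 1.30-fold and 1.16-fold. UGT3A2 was called higher over the mean of the transfections (0.27, adjusted p = 0.037, limma) at signals of 3.37 to 4.45 in treated and 3.42 to 3.78 in untreated arrays, all within the negative controls. That call was lost when any of 10 of the 18 arrays was left out: replicates 1 and 3 of treated and of untreated SKOV-3-AA cells, treated replicate 1 and untreated replicate 2 of SKOV-3-DD cells, and treated replicates 1 and 2 and untreated replicates 1 and 3 of SKOV-3-EV cells. The 7 other members were not called over that mean.

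Around HK1 and PGM1, the list of genes from hexose uptake to UDP-glucuronate held 19 measured of 22 genes, HK1, PGM1, UGP2 and UGDH among them. Over the mean of the transfections 7 of the 19 fell, 7 rose and 5 were not called, with a median of -0.09. Over all probe sets 28.7% were lower and 36.5% higher, with a median of 0.10. The lower genes were led by HK2 (-2.76, SE 0.12), an inducible hexokinase, which was above the negative controls on 4 of 9 treated and 9 of 9 untreated arrays. They also included the glucose transporter SLC2A1 (-1.86, SE 0.07) and the hexokinase-like HKDC1 (-1.48, SE 0.15). The higher genes included G6PC3 (0.77, SE 0.07), a phosphatase that releases glucose from glucose 6-phosphate, and HK3 (0.73), whose signals of 4.08 to 4.90 under cisplatin and 3.69 to 4.04 in untreated cells lay within the negative controls. Hexose entry and phosphorylation thus held the called decreases of over 1 on the log2 scale, with PGM1, and UGDH was among the called increases.

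**Figure D3:**
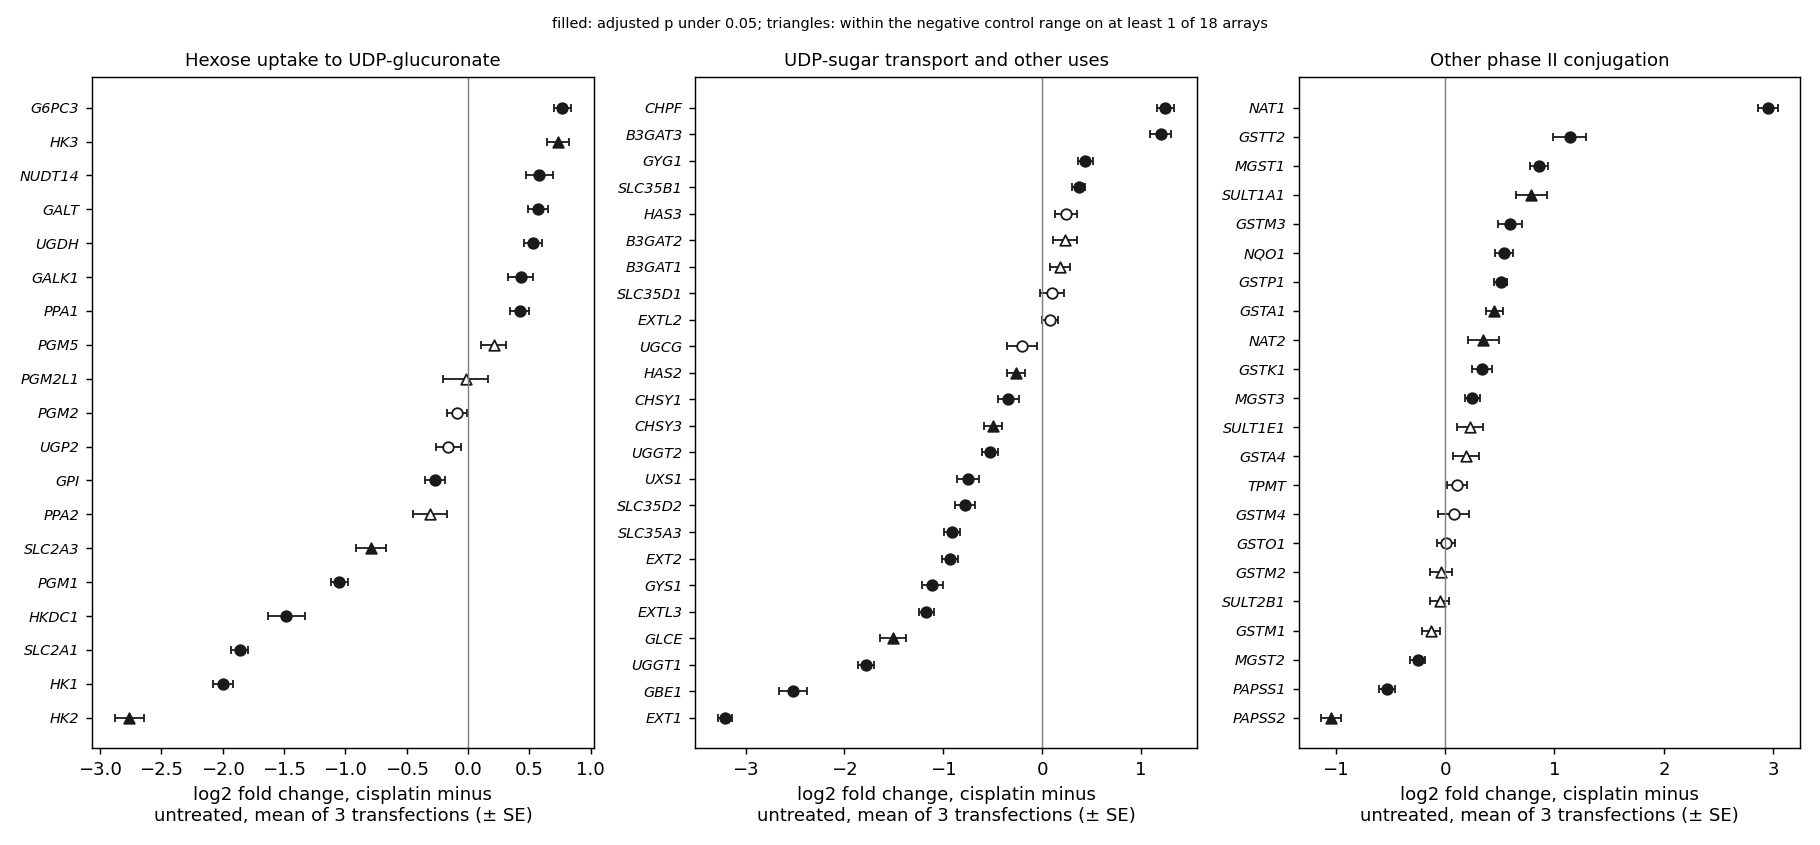
Log2 fold change after cisplatin, mean of the 3 transfections with its SE (x axis), of genes in 3 lists (y axis, sorted by value), filled where the adjusted p was under 0.05 and drawn as a triangle where at least 1 of 18 arrays lay within the range of the negative controls. HK2, HK1 and SLC2A1 are lowest from hexose uptake to UDP-glucuronate, EXT1 and GBE1 among other uses of UDP-sugars, and NAT1 is highest among other conjugating enzymes.

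A list of SLC35 family transporters and of genes on other routes fed by UDP-glucose or UDP-glucuronate held more called decreases than increases. Not every gene of it handles these 2 sugars itself. Of 24 measured of 26 listed genes 14 fell (28.7% of all probe sets did), 4 rose (36.5% did) and 6 were not called. With centred arrays 9 rose, and after quantile normalisation 7 did. The share of all probe sets called over that mean was not counted under these scalings. EXT1, a polymerase of heparan sulfate that consumes UDP-glucuronate, fell by 3.21 on the log2 scale (SE 0.07), with signals of 9.86 to 10.65 in treated and 13.34 to 13.64 in untreated arrays. GBE1, the glycogen branching enzyme, fell by 2.52. UGGT1, which reglucosylates misfolded glycoproteins, fell by 1.78, and GLCE, an epimerase of heparan sulfate, fell by 1.51 with 5 of 9 treated arrays above the negative controls. CHPF, a chondroitin polymerising factor, rose by 1.25 (SE 0.09) and B3GAT3, which adds the glucuronate of the proteoglycan linker, by 1.20 (SE 0.11). SLC35D1, a transporter of UDP-glucuronate into the endoplasmic reticulum, had 0.10 and was not called.

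Of 9 genes for removal or export of glucuronides 8 were measured, and 4 were called lower, 0 higher and 4 were not called over the mean of the transfections, where 28.7% of all probe sets were called lower and 36.5% higher. With centred arrays or after quantile normalisation 2 were called higher, and without untreated SKOV-3-DD replicate 1 it was 1. With probe sets of a mean under the median left out 2 were called lower. The shares of all probe sets over that mean were not counted under these alternatives. ABCC4, an efflux pump for organic anions, fell by 1.63 on the log2 scale (SE 0.09) and was above the negative controls on 18 of 18 arrays. The other 3 called genes were within the negative controls on every treated array. SLC17A5, the lysosomal carrier of sialic and glucuronic acid, had a mean signal of 5.41 in treated and 6.88 in untreated arrays, with 7 of 9 untreated arrays above the negative controls and no fold bound. ABCC5, another organic anion pump, had 6.45 in treated and 7.31 in untreated arrays, at least 1.08-fold lower in treated arrays against the floor of the negative controls. ABCG2, an efflux pump, had 3.64 in treated and 4.35 in untreated arrays, with 0 of 18 arrays above the negative controls and so no fold. GUSB, the lysosomal beta-glucuronidase that reverses glucuronidation, had -0.08 and was not called. Of 22 listed regulators of UGT genes 14 were measured, and over the same mean 6 were called higher, 5 lower and 3 were not called, near the shares of all probe sets (36.5% higher and 28.7% lower). FOXA1, a liver-enriched forkhead factor, was called higher, with a mean signal of 7.17 in treated and 6.01 in untreated arrays. Only 4 of 9 treated and 0 of 9 untreated arrays were above the negative controls, so no fold is given. BACH1, a repressor at antioxidant response elements, rose by 0.78 and KEAP1, which holds back NRF2, by 0.69. ESR1, the oestrogen receptor, was called higher (0.67) with 0 of 18 arrays above the negative controls. PPARA, a fatty acid receptor, had 5.82 in treated and 7.36 in untreated arrays, with 0 of 9 treated and 9 of 9 untreated arrays above the negative controls, and was at least 1.12-fold lower in treated arrays. NR3C1, the glucocorticoid receptor, fell by 1.29. NFE2L2, which encodes NRF2, had -0.16 over the mean of the transfections and was not called there. By transfection it had 0.13 in SKOV-3-AA, -0.19 in SKOV-3-DD and -0.43 in SKOV-3-EV cells, the last of them called (adjusted p = 0.033, limma).

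Of 22 measured conjugating enzymes outside glucuronidation 11 were called higher, 3 lower and 8 were not called over the mean of the transfections, with a median of 0.24, against 36.5% higher, 28.7% lower and a median of 0.10 over all probe sets. NAT1, an arylamine acetyltransferase, rose by 2.95 (SE 0.09), with signals of 11.15 to 11.58 in treated and 7.98 to 8.80 in untreated arrays. GSTT2, whose signal cannot be told apart from that of its near-identical copy, rose by 1.14 and MGST1 by 0.86, both glutathione transferases, and the sulfotransferase SULT1A1 was called higher (0.79) with all arrays within the negative controls. PAPSS2, which makes the sulfate donor of sulfation as UGDH makes that of glucuronidation, fell by 1.04, and its relative PAPSS1 fell by 0.53.

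The responses of all genes differed with genomic span, and the 7 genes are set beside genes of like span. On GRCh38.p14 HK1 lies at chr10:69270000-69401882, PGM1 at chr1:63593411-63660245, UGP2 at chr2:63840969-63891560 and UGDH at chr4:39498755-39527439. The UGT2B genes lie on the same chromosome as UGDH, UGT2B17 at chr4:68537173-68576322, UGT2B7 at chr4:69051375-69112987 and UGT2B4 at chr4:69480165-69526014. Genes grouped into quintiles of span on GRCh38.p14 had median changes over the mean of the transfections of 0.26, 0.25, 0.15, -0.16 and -0.73, the last for genes of 86.8 to 2470 kb. HK1, of 132 kb, had -2.00 in that quintile, whose 10th percentile was -2.23. UGT2B7 (61.6 kb) had -1.32 and PGM1 (66.8 kb) -1.05 in the quintile of 37.3 to 86.8 kb, whose 10th and 90th percentiles were -1.20 and 0.47. UGP2 (50.6 kb), UGT2B4 (45.8 kb) and UGT2B17 (39.2 kb) lie in the same quintile with -0.16, -0.31 and 0.12. UGDH, of 28.7 kb, had 0.53 in a quintile with a 90th percentile of 0.89. By these spans, HK1, PGM1 and UGDH lay between the 10th and 90th percentile of genes of like span. UGT2B7 lay near the 10th percentile (-1.32, SE 0.13, against -1.20). Only 2 of its 9 treated arrays were above the negative controls, so its place against that percentile is not settled. The spans are those of whole genes. HK1 has 7 promoter windows, and the UGT2B7 window lies inside its gene. Transcripts from inner starts have shorter spans and could fall in another quintile. The part of gene span in these changes was not tested.

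**Figure D4:**
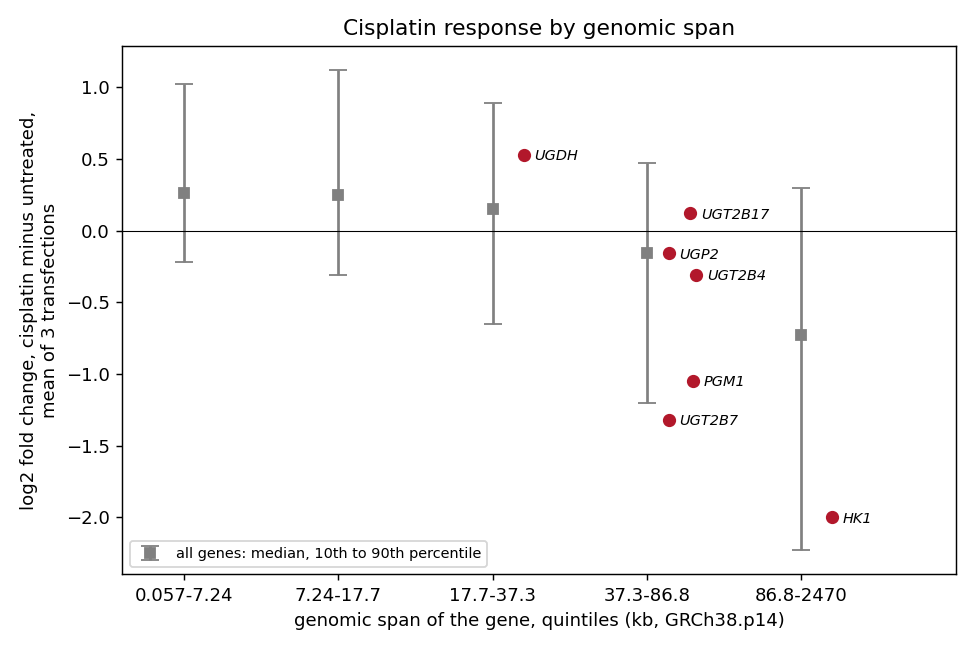
Log2 fold change after cisplatin, mean of the 3 transfections (y axis), of the 7 genes (red points) beside the median and the 10th to 90th percentile of all genes with a span (grey) in each quintile of genomic span in kb (x axis). By the span of the whole gene, UGT2B7 lies at -1.32 (SE 0.13), close to the lower end of the bar of its quintile at -1.20. Most of its treated arrays were within the negative controls. The other 6 genes lie within their bars.

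The genes whose signal followed each gene of donor supply most closely over the 18 arrays, out of 9447 compared, are given as a description, since cisplatin separates the arrays for a large share of genes. For HK1 they were RBPMS (Pearson r 0.995), VAV2 (0.994) and CARMIL1 (0.994), and 2070 genes had an r over 0.9. For PGM1 they were CNOT11 (0.983), ELP4 (0.982) and NDRG1 (0.980), with 1962 genes over 0.9. For UGDH they were CD40 (0.965), ZCCHC10 (0.958) and CSGALNACT2 (0.957), with 825 over 0.9. For UGP2 the highest were GLB1L (0.718), UBE2Q2 (0.714) and CFAP47 (0.712), and 0 genes were over 0.9.

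As a check of the cells, 6 of 9 measured epithelial carcinoma markers, EPCAM, KRT7, KRT8, KRT18, KRT19 and PAX8, were above the negative controls on all arrays, with a mean log2 signal over the list of 9.74 to 9.93 in treated and 9.84 to 10.11 in untreated arrays. Single markers moved either way, with 4 called higher, 2 lower and 3 not called over the mean of the transfections. Of all probe sets, 36.5% were called higher and 28.7% lower. PAX8 fell by 3.45 and KRT19 fell by 1.60, whereas KRT7 rose by 0.96. MUC16 (1.58) and WT1 were called higher with 0 of 18 arrays above the negative controls. CDH1 also had 0 of 18 and was not called. Of 9 hepatocyte markers only SERPINA1 was above the negative controls on all arrays. Of 6 leukocyte markers only PTPRC was, at 9.52 to 10.10 in treated and 11.71 to 12.34 in untreated arrays, and of 8 fibroblast and endothelial markers only COL1A2. Over all probe sets, the treated SKOV-3-DD arrays numbered 2 and 3 deviated most from the mean of their group (root mean square 0.305 and 0.311, against 0.144 to 0.251 in the other arrays). Without these 2 arrays 1 treated SKOV-3-DD array remains, which is assumed to vary like the other groups, and 4 of the 7 genes were called and 2 passed the study's thresholds, against 4 and 3 with them. These counts are no check of stability.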

How the data were processed

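The 7 genes and the gene lists were chosen with earlier results of these data known. RNA of 18 samples was hybridised to Clariom S arrays, and the authors deposited log2 signals per probe set, which they made from scanner files by SST-RMA in the Transcriptome Analysis Console. RMA adjusts arrays to each other, which can hide a general shift in RNA amount. The sources used here name no genome build for the probes, and coordinates come from RefSeq tables of GRCh38.p14. The table held 24351 features. Leaving out 2903 control features, 612 of them negative controls, left 21448 probe sets. Of these, 17709 had a single symbol in the platform annotation. The other 3739 had none or several, and probe sets with several symbols were not assigned to a gene. The deposited values were used without further normalisation, and detection calls were not used here.

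Groups were those of the labels. A linear model with 6 group means (limma 3.58.1 in R 4.3.3, 12 residual and 5.47 prior degrees of freedom) gave all comparisons: cisplatin against untreated in each transfection and averaged, transfections against each other within a treatment, and differences between cisplatin responses. The number of arrays sets the precision: the median SE was 0.178 for a comparison of 2 groups and 0.252 for a difference between responses. The procedure was tested on simulated data. All 7 genes are named, with PEA15, and from each list up to 4 called genes in its main direction and up to 2 in the other, by size of the averaged response. SLC35D1, GUSB, NFE2L2, PTPRC and the 4 epithelial markers given by value are added as genes of known role in the route or check and were chosen with their values seen. A comparison of protein sequences was not made here. Alternatives were array centring, quantile normalisation, filters on low means, limma's trend and robust options, a replicate block, models of only the groups compared, 1 probe set per symbol, leaving out each array, and leaving aside 2 treated SKOV-3-DD arrays. Figures used matplotlib 3.10.9 in Python 3.11.15.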

Additional observations from a re-analysis of the deposited data

How the results depend on the processing

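HK1, PGM1, UGT2B7 and UGDH kept their direction and their call in every transfection under all alternatives run, of which the one without 2 treated SKOV-3-DD arrays leaves 1 array in that group. Of 184 recomputed values of called changes, 178 kept direction and call, 6 were no longer called, all of UGT2B17 in SKOV-3-AA cells, and 0 turned round. Of 1089 recomputed values of changes that had not been called, 73 had the other sign and 3 were called. The called ones were UGP2 in SKOV-3-EV cells after quantile normalisation (0.46) and UGP2 in SKOV-3-DD cells without treated replicate 1 (-0.53). The last was UGT2B17 in SKOV-3-DD cells without untreated replicate 1 (-0.44). The 184 and 1089 values leave out the comparison averaged over the transfections, which is given below. The count of genes past the study's thresholds in SKOV-3-EV cells was 1 after quantile normalisation, against 2 as deposited, and 2 in SKOV-3-DD cells with centred arrays or quantile normalisation, against 3. Leaving out 1 array at a time gave 4 to 5 called genes in SKOV-3-AA, 4 to 5 in SKOV-3-DD and 4 in SKOV-3-EV cells. The cause of these changes was not tested.

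Centring each array on its median moved the median of all changes to 0.30, against 0.10 as deposited and 0.04 after quantile normalisation. Averaged over the transfections, HK1 had -1.80 with centred arrays and -1.82 after quantile normalisation, UGT2B7 -1.12 and -1.03, PGM1 -0.85 and -0.95, and UGDH 0.72 and 0.55. UGT2B4 was called after quantile normalisation (-0.42, adjusted p = 0.0096) and UGT2B17 with centred arrays (0.32, adjusted p = 0.01), both by limma and within the range of the negative controls. Of all calls, 67.5%, 62.6% and 68.2% were higher with centred arrays in SKOV-3-AA, SKOV-3-DD and SKOV-3-EV cells, against 49.2%, 47% and 52% as deposited. In the UGT family 4 genes were called higher over the mean of the transfections with centred arrays and 0 after quantile normalisation, with 4 lower in the last. For 8 of the 10 measured UGT genes no array was above the negative controls. The share of all probe sets called over that mean was not counted under these scalings.

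With the replicate number as a block the called genes numbered 5, 4 and 4 in SKOV-3-AA, SKOV-3-DD and SKOV-3-EV cells, as without it, and 9848, 9288 and 10958 probe sets were called, against 9708, 9182 and 10832. Deviations of arrays with the same number correlated by -0.05 to 0.18 and those with different numbers by -0.18 to 0.15, and 16 of 18 arrays correlated best with their own number. That is a hint from the data that arrays of one number share something. The numbers were not taken as pairs, because the labels do not say what they mark and not every same-number correlation was above 0.

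Limits: 3 arrays a group leave differences between responses with a median SE of 0.252, signals within the negative controls carry no fold, and UGT2B7 under cisplatin is at that limit.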
